A study of Mus musculus with 6 samples.

Results

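Tropomodulins and leiomodins are a family of 7 genes whose proteins act at the pointed end of actin filaments, the slow-growing end that lies free in the middle of the muscle sarcomere. The family comprised Tmod1, Tmod2, Tmod3 and Tmod4 and Lmod1, Lmod2 and Lmod3, and all 7 had a row of their own among the 19938 genes measured. Each gene was read from an array row annotated with its symbol alone. Between several such rows of a gene, the row was chosen by its mean value across the 6 arrays, the higher one being kept. That mean weighs all hearts alike and decided only 1 case, Tmod1, whose rows averaged 11.75 and 7.74 on the log2 scale.

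Hearts of 6 male FVB mice were each profiled on an Affymetrix Mouse Gene 1.0 ST array. A group of 3 A2a-R transgenic mice, made to over-express the adenosine A2a receptor through a transgene that is cardiac-specific and inducible, were set against 3 wild-type littermates. All 6 mice had transverse aortic constriction (TAC), a surgical narrowing of the aorta that loads the left ventricle with pressure, at 8 weeks of age, and their hearts were taken after 14 weeks. The sources used here do not give the promoter of the transgene, its inducer or the part of the heart sampled. Neither unoperated hearts nor the receptor gene itself were analysed here, so the transgene could not be checked against its label.

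Tropomodulins cap the pointed end and thereby hold the length of thin filaments, and they bind tropomyosin as well as actin. Leiomodins are their larger relatives, with additional actin-binding parts that let them nucleate filaments and, in heart muscle, work against tropomodulin so that thin filaments grow longer. Loss of Lmod2 in mice gives short thin filaments and dilated cardiomyopathy, and mutations of LMOD3 in people cause nemaline myopathy, a disease of skeletal muscle.

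Tmod4 and Lmod3 fell in the transgenic hearts, and the other 5 genes did not pass the test. Tmod4, the tropomodulin known from fast skeletal muscle, was 1.79-fold lower, and Lmod3, the leiomodin of skeletal and heart muscle, was 1.30-fold lower. Lmod2, the main cardiac leiomodin, and Tmod1, the main cardiac tropomodulin, differed by little and in opposite directions. Both are very bright rows, at the 98.4th (Lmod2) and 98.3rd (Tmod1) percentile of all tested rows, where the array compresses changes. Tmod4 stood at the 85.1st and Lmod3 at the 90.2nd percentile, so the sizes of these differences are not on equal terms. The test was limma's moderated test on the deposited log2 values with Benjamini-Hochberg adjustment over 21789 rows, of which 209 passed at an adjusted p below 0.05 (0.959%). At 1 row per gene, 2 of the 7 members passed, against 0.993% of all genes.

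The promoters of 3 members are shown because these genes gave the largest fall (Tmod4) and the 2 small differences of opposite sign at the cardiac pointed end (Lmod2 and Tmod1). RefSeq promoters on GRCm38.p6 were found for 5 of the 7 members. None was found for Tmod3 or Lmod3 in the promoter set used here, so the called Lmod3 could not be shown. The sequences are the 250 bases before an annotated start, 5′ to 3′, at chr3:95124264-95124513 for Tmod4, chr6:24597521-24597770 for Lmod2 and chr4:46038972-46039221 for Tmod1, all on the plus strand. Capitals mark every match on either strand to the motifs searched.
Tmod4: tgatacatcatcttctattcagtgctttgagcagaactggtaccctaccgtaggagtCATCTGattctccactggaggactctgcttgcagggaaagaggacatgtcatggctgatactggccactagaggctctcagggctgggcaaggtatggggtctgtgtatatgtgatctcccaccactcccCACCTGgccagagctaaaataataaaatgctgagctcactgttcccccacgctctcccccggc
Lmod2: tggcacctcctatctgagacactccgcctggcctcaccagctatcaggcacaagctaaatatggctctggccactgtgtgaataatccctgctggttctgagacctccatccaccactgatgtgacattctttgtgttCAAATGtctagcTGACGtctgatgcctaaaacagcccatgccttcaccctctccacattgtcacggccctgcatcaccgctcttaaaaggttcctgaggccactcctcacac
Tmod1: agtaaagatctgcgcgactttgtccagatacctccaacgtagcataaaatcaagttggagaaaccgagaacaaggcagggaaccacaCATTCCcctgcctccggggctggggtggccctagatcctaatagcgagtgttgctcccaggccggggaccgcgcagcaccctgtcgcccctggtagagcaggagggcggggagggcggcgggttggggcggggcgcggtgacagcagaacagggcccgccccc
The Tmod4 window holds 2 E-boxes (CANNTG, the site of muscle bHLH factors), which 66.22% of 32851 RefSeq promoter windows of the same length also hold at least once. The Lmod2 window holds 1 E-box and 1 half-site of the cyclic AMP response element (TGACG), the latter found in 17.77% of windows, and the Tmod1 window holds 1 M-CAT core (CATTCC), found in 12.64%. The full element TGACGTCA (1.55% of windows), the CArG box of serum response factor (1.47%), the MEF2 site (2.92%), GATAA (22.58%) and TATAAA (12.37%) had no exact match in these 3 windows. The CArG box was searched as CCWWWWWWGG, where W is A or T. Near matches were not searched, such as ctaaatatgg in the Lmod2 window, which is 1 letter off the CArG box. None of the marked stretches overlap. A match describes letters in the window and is no evidence of binding.

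Among the tropomodulins, Tmod4 had log2 values of 8.85, 8.94 and 8.89 in the transgenic hearts, against 9.55, 9.73 and 9.92 in the wild-type hearts. Every transgenic heart lay below every wild-type heart, the nearest 2 being 8.94 (transgenic) and 9.55 (wild type). The transgenic hearts were close together and the wild-type hearts were spread more widely (8.89 ± 0.05 and 9.73 ± 0.19, SD, n = 3 each). Tmod4 fell by 0.84 ± 0.09 (SE) on the log2 scale, with a 95% interval of -1.05 to -0.63 and a limma adjusted p of 0.00694, so on the linear scale it fell by 44.1%. The call held in all 6 fits that left out 1 array, with differences of -0.93 to -0.75 and limma adjusted p of 0.0131 to 0.0414.

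Tmod1, which caps thin filaments in heart muscle and also shapes the membrane skeleton of red blood cells, had values of 11.78, 11.92 and 11.78 in the transgenic hearts and of 11.73, 11.65 and 11.67 in the wild-type hearts. The groups did not overlap, but the nearest hearts were 11.78 (transgenic) and 11.73 (wild type). The difference of 0.14 ± 0.06 (SE, 95% interval -0.00198 to 0.289) did not pass (limma adjusted p = 0.344). The second row annotated with Tmod1, drawn from a single cDNA, had 7.79, 7.64 and 7.85 in transgenic and 7.66, 7.60 and 7.90 in wild-type hearts, where the groups overlapped and the difference was 0.04 ± 0.09.

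Tmod2, the tropomodulin of neurons, had values of 7.45, 7.19 and 7.47 in the transgenic hearts and of 7.34, 7.51 and 7.46 in the wild-type hearts. These overlapped, with transgenic replicate 2 the lowest of all 6. Tmod3, which is made in most cell types, had 9.11, 9.04 and 9.05 in the transgenic hearts and 9.22, 9.15 and 9.11 in the wild-type hearts, where a transgenic and a wild-type heart shared the value 9.11. Their differences were -0.07 (95% interval -0.27 to 0.14) and -0.09 (-0.23 to 0.04), with limma adjusted p of 0.790 and 0.507. The intervals of both leave out a change as large as that of Tmod4.

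Among the leiomodins, Lmod3 had values of 9.63, 9.63 and 9.67 in the transgenic hearts, against 9.97, 10.05 and 10.05 in the wild-type hearts. Its groups stood apart with little spread in either (9.64 ± 0.02 and 10.02 ± 0.05, SD, n = 3 each). Lmod3 fell by 0.38 ± 0.06 (SE), with a 95% interval of -0.51 to -0.25 and a limma adjusted p of 0.0223, so on the linear scale it fell by 23.2%. The size of the difference barely moved when 1 array was left out (-0.41 to -0.37), but the call was lost without transgenic replicate 1, 2 or 3 (limma adjusted p = 0.0771, 0.0753 and 0.0703) and without wild-type replicate 2 or 3 (0.108 and 0.092).

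Lmod2, which lengthens cardiac thin filaments, had values of 11.74, 11.69 and 11.80 in the transgenic hearts and of 11.95, 11.91 and 11.92 in the wild-type hearts. All transgenic hearts lay below all wild-type hearts, yet the difference of -0.18 ± 0.06 (SE, 95% interval -0.31 to -0.05) did not pass over all rows (unadjusted p = 0.0116 and adjusted p = 0.199 in limma). Lmod1, the leiomodin of smooth muscle, had 6.52, 6.48 and 6.53 in the transgenic hearts and 6.51, 6.49 and 6.42 in the wild-type hearts. The groups overlapped, and the difference was 0.04 with a 95% interval of -0.09 to 0.16 (limma adjusted p = 0.820).

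**Figure D1:**
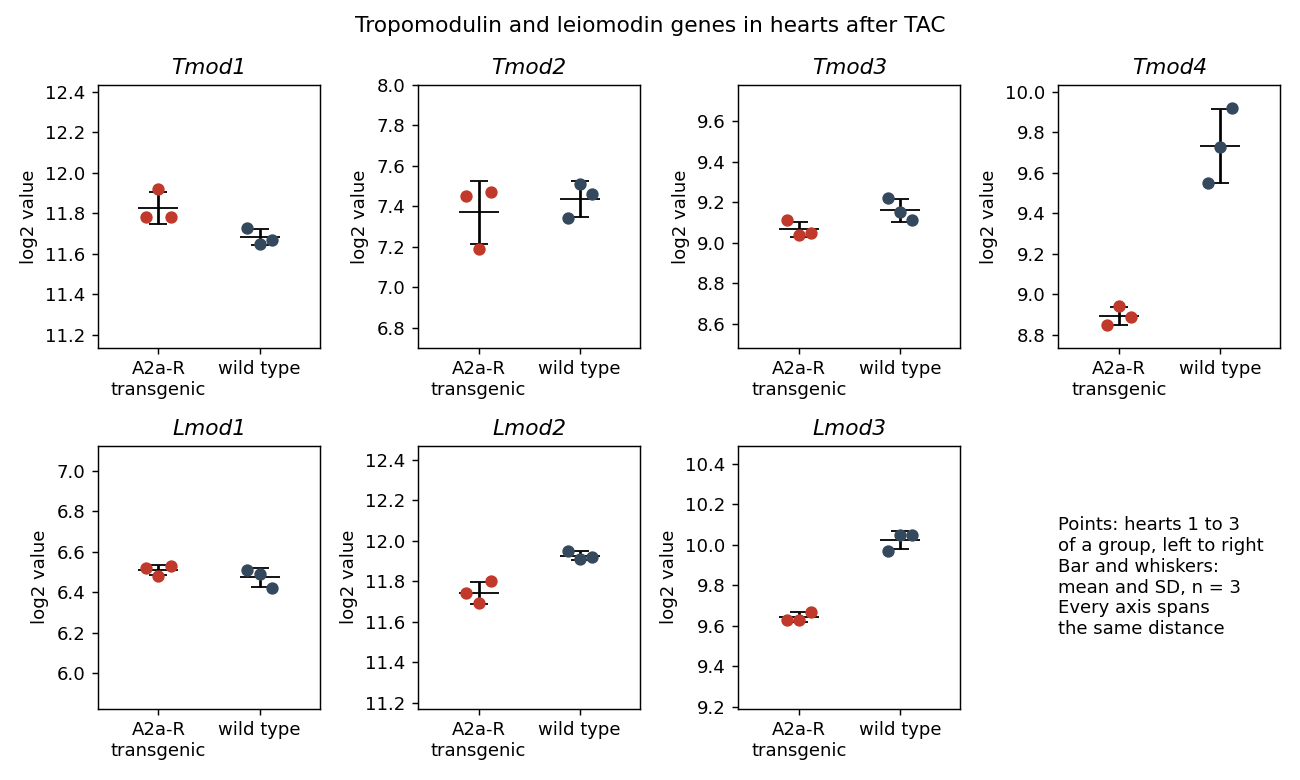
Log2 value (y axis, each spanning the same distance) of each tropomodulin and leiomodin gene in A2a-R transgenic (red, left) and wild-type hearts (dark, right) after TAC. Points are hearts 1 to 3 of a group from left to right, and the bar with whiskers is the mean and SD (n = 3); Tmod4 and Lmod3 show the widest gaps between the groups, and Tmod2, Tmod3 and Lmod1 overlap.

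Across the family, the transgenic and wild-type groups did not overlap in 4 of the 7 genes, Tmod4, Lmod3 and Lmod2 with lower and Tmod1 with higher transgenic values, against 20.2% of all genes. At an unadjusted p below 0.05 in limma there were 3 of 7, the first 3 of these 4, against 14.6% of all genes. The median log2 difference of the 7 was -0.09, and that of all 19938 genes was -0.01. The sign did not divide the family by subfamily, since 3 of 4 tropomodulins and 2 of 3 leiomodins had a negative difference.

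Lmod2 and Lmod3 were also set against Tmod1 within each heart, because leiomodin and tropomodulin-1 bind the same filament end. The log2 value of Lmod2 minus that of Tmod1 was -0.04, -0.23 and 0.02 in the transgenic hearts and 0.22, 0.26 and 0.25 in the wild-type hearts. For Lmod3 minus Tmod1 it was -2.15, -2.29 and -2.11 in transgenic and -1.76, -1.60 and -1.62 in wild-type hearts. Probes of different genes are not on 1 scale, so only the change between groups can be read: it was -0.33 for Lmod2 and -0.52 for Lmod3, lower in all 3 transgenic than in all 3 wild-type hearts. The exact two-sided permutation test gave p = 0.1 for each and 0.1 after Benjamini-Hochberg adjustment over the 2 differences, the smallest p that 3 hearts against 3 allow. Lmod2 and Lmod3 were each lower and Tmod1 higher without overlap, so this separation and this p were fixed in advance. The test therefore adds nothing to the values of the single genes. Both differences combine lower leiomodin values with higher Tmod1 values, and of these 3 genes only Lmod3 was called by itself.

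No gene next to a member was called. In RefSeq order the nearest measured protein-coding genes beside Tmod4 were Vps72, whose annotated span overlaps that of Tmod4, and Scnm1. Vps72, a subunit of a chromatin remodelling complex, averaged 8.63 in transgenic and 8.61 in wild-type hearts, and Scnm1, a splicing factor, averaged 9.72 in transgenic and 9.74 in wild-type hearts. Their differences were 0.02 (95% interval -0.11 to 0.15) and -0.03 (-0.19 to 0.13), so neither interval reached the fall of Tmod4. Beside Lmod3 lay Uba3, an enzyme subunit of the neddylation pathway, at -0.03 and Frmd4b at 0.17, and beside Lmod2 lay Asb15 at -0.07 and Wasl at -0.03. Tmod2 and Tmod3 neighbour each other. Of the 12 genes next to a member that are not members themselves, 0 passed in limma, where 0.993% of all genes did. An unadjusted p below 0.05 in limma was reached by 3 of the 12, against 14.6% of all genes: Shisa4 beside Lmod1 (0.31), Lysmd2 beside Tmod2 (-0.17) and Tstd2, which overlaps Tmod1 (-0.17).

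**Figure D2:**
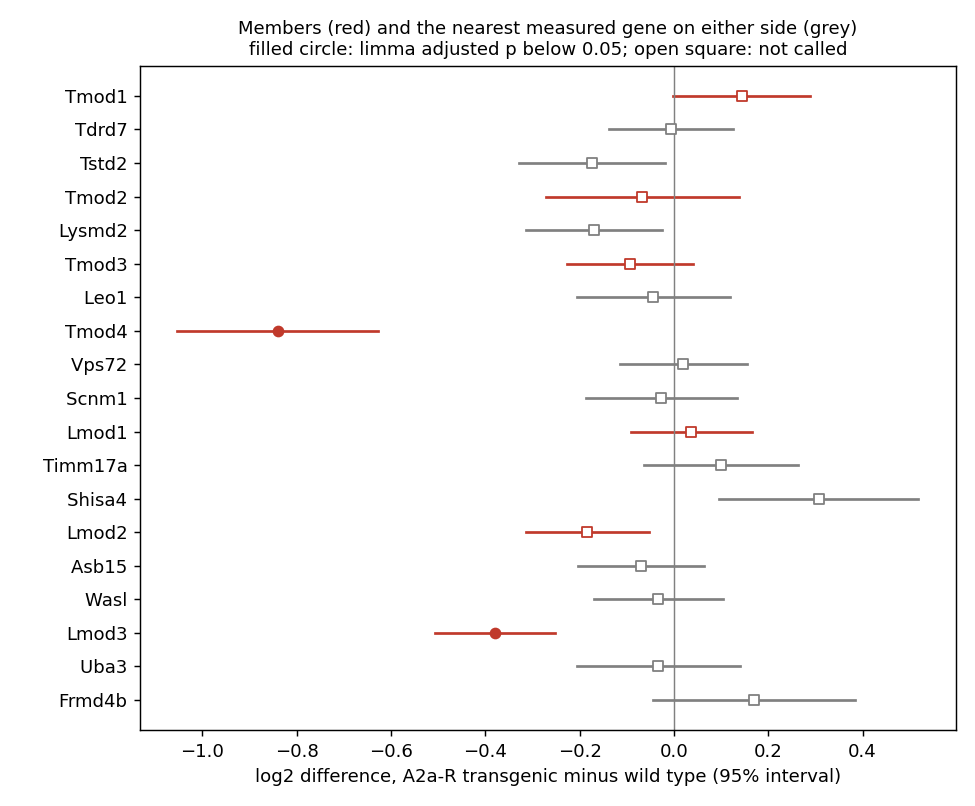
Log2 difference, A2a-R transgenic minus wild type, with its 95% interval from limma (x axis) for the 7 members (red) and, beneath each, the nearest measured protein-coding genes on either side (grey). Filled circles passed at an adjusted p below 0.05 and open squares did not; Tmod4 at -0.84 and Lmod3 at -0.38 are the 2 filled circles, and Vps72 and Scnm1 beside Tmod4 lie near 0.

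The thin filament's other proteins were described from 7 lists by role, with 86 measured genes. Of these 86 genes 1 rose, 3 fell and 82 did not pass in limma, against 0.993% called over all genes, and 30 had positive and 56 negative differences with a median of -0.04. Over all genes 53.5% had negative differences. That share includes dim rows, whereas 76 of the 86 partner genes lay above the dimmest 40% of rows. Without those dim rows 184 rows were called higher and 309 lower, against 113 and 96 over all tested rows. Whether the partner genes leaned lower than other genes of like brightness was not tested. At an unadjusted p below 0.05 there were 4 higher and 15 lower among the 86, against 1261 higher and 1646 lower among all 19938 genes (14.6%). The genes that fell were Acta1, Twf2 and Synpo2l, and the one that rose was Acta2.

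Actins are what the family binds. Of 5 actins measured 1 rose, 1 fell and 3 did not pass. Acta1, the skeletal alpha-actin, had 11.92, 11.13 and 12.26 in the transgenic hearts and 13.20, 13.15 and 13.47 in the wild-type hearts, and Acta2, the smooth muscle alpha-actin, had 11.43, 11.69 and 11.47 in transgenic and 10.74, 10.94 and 10.73 in wild-type hearts. Acta1 fell by 1.50 ± 0.25 (SE, limma adjusted p = 0.0375) and Acta2 rose by 0.73 ± 0.09 (0.0106), while Actb, the cytoskeletal beta-actin, was at -0.06 and Actc1, the cardiac actin of the adult thin filament, differed by 0.01 (95% interval -0.11 to 0.14). Acta1 no longer passed when transgenic replicate 1 or any wild-type heart was left out (limma adjusted p = 0.0762 to 0.129), nor with a trended and robust variance prior (0.118) or with all rows of the table tested (0.0635). Acta2 did not pass when wild-type replicate 1 or 3 was left out (0.0594 and 0.0565).

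At the barbed end, the fast-growing end held in the Z-disc, 1 of 25 genes of capping and severing fell and 24 did not pass. This was Twf2, twinfilin-2, which binds actin monomers and caps barbed ends, with values of 10.61, 10.59 and 10.67 in the transgenic hearts against 11.16, 11.20 and 11.29 in the wild-type hearts. The groups did not overlap, and Twf2 fell by 0.59 ± 0.06 (SE, limma adjusted p = 0.00535). Svil, supervillin, was at -0.21 and Cap2, a cyclase-associated protein that recycles actin monomers, at 0.13, and neither passed (limma adjusted p = 0.173 and 0.331).

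A list of 9 genes was drawn up for partners of the pointed end and of leiomodins, but it also holds proteins of the Z-disc, where barbed ends lie. Of these 9 genes Synpo2l, an actin-binding Z-disc protein, fell by 0.50 ± 0.08 (SE, limma adjusted p = 0.0278), and 8 did not pass. Its fall is therefore not read as a change at the pointed end. Synpo2l had 10.48, 10.27 and 10.48 in the transgenic hearts and 10.99, 10.89 and 10.85 in the wild-type hearts, and it did not pass in any of the 6 fits that left out an array (limma adjusted p = 0.0548 to 0.108). Nrap, a scaffold of myofibril assembly, was at -0.29 and Fbxl22, an F-box protein of the cardiac Z-disc, at -0.27 (limma adjusted p = 0.105 and 0.206). Klhl40, which stabilises the LMOD3 and nebulin proteins in skeletal muscle, differed by -0.06 (95% interval -0.21 to 0.09), its relative Klhl41 by -0.11, Neb, the giant ruler protein nebulin, by 0.08 and Nebl, its cardiac relative nebulette, by 0.15.

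Of 4 tropomyosins and 8 troponins 0 passed in limma. At an unadjusted p below 0.05 there was 1 of these 12, Tnnt1, the slow skeletal troponin T, at -0.30. Tpm1, the main cardiac tropomyosin and a direct partner of tropomodulin, was at -0.09 (95% interval -0.21 to 0.03), Tpm4 at -0.05 and Tpm2 at -0.01. Tnnc1, the troponin C of heart and slow muscle, was at -0.08 and Tnni2, the fast skeletal troponin I, at 0.10. Of 28 genes of filament nucleation, elongation and monomer binding 0 passed in limma and 6 had an unadjusted p below 0.05, all 6 with lower transgenic values, where 14.6% of all genes reach that p in either direction. The formin Daam1 was at -0.27, Enah, which protects growing filament ends, at -0.40 and the formin Fmn1 at -0.22 (limma adjusted p = 0.0752, 0.0966 and 0.138).

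Serum response factor and MEF2 are transcription factors known to switch on muscle actin-binding genes, Lmod3 among them in mice. The list of these factors and their cofactors had 11 genes, of which 8 were measured. Mkl1, Mkl2 and Mef2b had no row of their own under these symbols, so the list covers the pathway only in part. Of the measured genes 1, the actin-severing cofilin-2 gene Cfl2, is no such factor and also stands on the barbed end list. Of the 8, 0 passed in limma, and 3 had an unadjusted p below 0.05, against 14.6% of all genes. Srf itself differed by -0.03 (95% interval -0.15 to 0.10). Mef2c was at -0.23, Abra, an actin-binding activator of this pathway, at -0.31 and Fhl2, a LIM-domain cofactor, at 0.31 (limma adjusted p = 0.134, 0.206 and 0.264).

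**Figure D3:**
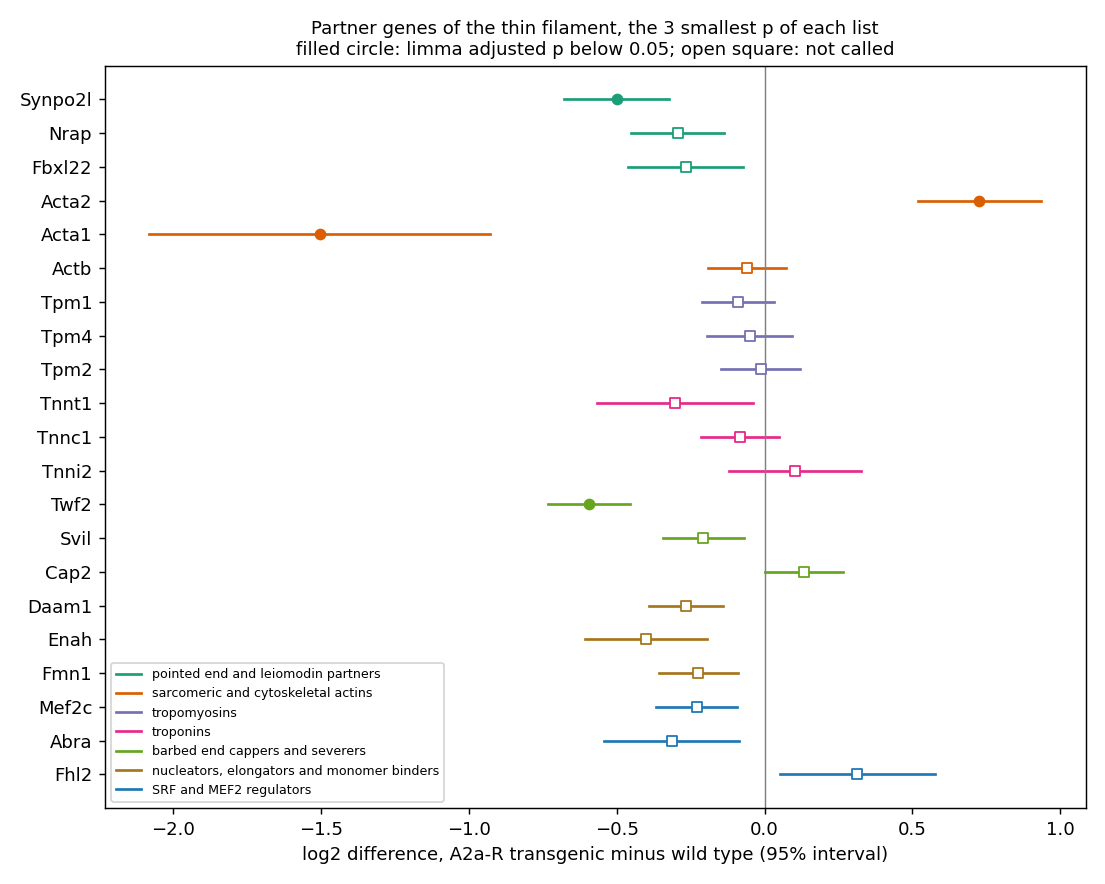
Log2 difference, A2a-R transgenic minus wild type, with its 95% interval from limma (x axis) for the 3 genes with the smallest p of each of 7 lists of thin filament partners, coloured by list. Filled circles passed at an adjusted p below 0.05 and open squares did not; Acta1, Twf2 and Synpo2l lie left of 0 and Acta2 right of 0.

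Because the tissue is heart in bulk, fewer cells of a type and less RNA per cell cannot be told apart. The marker genes of heart muscle were at similar levels in both groups, with a mean log2 value over 10 genes of 13.43 to 13.48 in transgenic and 13.43 to 13.48 in wild-type hearts and 0 of 10 called (1 higher and 1 lower at an unadjusted p below 0.05). These are very bright rows, between the 99.2nd (Ryr2) and the 99.99th (Actc1) percentile of all tested rows, where changes are compressed too. Over all genes 0.993% were called and 14.6% had an unadjusted p below 0.05. Tmod4 is best known from fast skeletal muscle, so 13 markers of that tissue were read beside it. Their mean log2 value was 6.60 to 6.73 in transgenic and 6.65 to 6.72 in wild-type hearts, and 0 of 13 passed in limma (1 higher and 2 lower at an unadjusted p below 0.05). The 6 that define fast fibres, Myh1, Myh2, Myh4, Actn3, Pvalb and Mylpf, lay between 5.41 and 6.55 in transgenic and between 5.34 and 6.59 in wild-type hearts. These are dim rows, whose means stand between the 19.6th (Myh4) and the 36.9th (Myh2) percentile of all tested rows, where changes are compressed. Casq1, the skeletal calsequestrin, was the marker with the largest difference, at -0.39 ± 0.16 (SE, limma adjusted p = 0.324). It had 10.09, 10.27 and 9.85 in transgenic and 10.15, 10.44 and 10.79 in wild-type hearts, overlapping between the groups, with wild-type replicate 3 highest for Casq1 as for Tmod4. Mybpc2, the fast skeletal myosin-binding protein C, had 9.23, 9.20 and 9.02 in transgenic and 9.38, 9.26 and 9.36 in wild-type hearts, which did not overlap, and was at -0.18 (unadjusted p = 0.0373 and adjusted p = 0.303 in limma). Myh1, the marker with the smallest p, went the other way, at 0.19 (unadjusted p = 0.0123 and adjusted p = 0.203 in limma). It had 5.69, 5.76 and 5.78 in transgenic and 5.59, 5.50 and 5.58 in wild-type hearts, which did not overlap. Of the 13 markers 7 had positive and 6 negative differences.

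Markers of other cell types were read in the same way, beside the same shares over all genes (0.993% called and 14.6% at an unadjusted p below 0.05). The macrophage markers were at a mean log2 value of 8.52 to 8.60 in transgenic and 8.17 to 8.29 in wild-type hearts, with 11 of 12 positive differences and 2 genes called higher, the lectin gene Lgals3 and the lysozyme gene Lyz1, and 9 higher and 0 lower at an unadjusted p below 0.05. The 5 red blood cell markers, relevant to Tmod1, were at 7.53 to 7.58 in transgenic and 7.73 to 7.78 in wild-type hearts, with 4 negative differences and 1 called lower, Alas2, which makes heme, and 2 lower at an unadjusted p below 0.05. The 8 atrial markers were at 8.07 to 8.53 in transgenic and 8.29 to 8.75 in wild-type hearts, overlapping between the groups, with 7 negative differences and 1 called lower, Nppa, also the only one at an unadjusted p below 0.05. Nppa was at -1.18. The 7 others overlapped between the groups and lay between -0.20 (Bmp10) and 0.03 (Nr2f2), with Myl4 at -0.17, Myl7 at -0.14 and Sln at -0.01. Whether the amount of atrial tissue differed was not tested. The endothelial markers had 9 of 10 negative differences and 0 called in limma (2 lower at an unadjusted p below 0.05), at 10.16 to 10.26 in transgenic and 10.26 to 10.35 in wild-type hearts. The part of these differences in those of Tmod4 and Lmod3 was not tested. The 12 smooth muscle and pericyte markers, relevant to Lmod1, were at 9.15 to 9.20 in transgenic and 9.07 to 9.15 in wild-type hearts, and 1 of them was called, Acta2. The 11 neuron and nerve markers, relevant to Tmod2, were at 6.02 to 6.13 in transgenic and 5.97 to 6.08 in wild-type hearts with 0 called in limma (1 lower at an unadjusted p below 0.05), and the 10 fibroblast markers were at 10.17 to 10.18 in transgenic and 10.03 to 10.37 in wild-type hearts, with 0 called and 0 at an unadjusted p below 0.05.

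Tmod4 had both the largest difference and the smallest p of the family, and the genes most like it over the 6 hearts were found by the root mean square distance between profiles centred on their own mean. The 5 closest were Armc2 at a distance of 0.0983, D7Ertd443e at 0.106, Lrrc55, an auxiliary subunit of potassium channels, at 0.111, Itga9, an integrin alpha chain, at 0.117 and Necab1, a calcium-binding protein, at 0.118 log2 units. Their log2 differences were -0.75, -0.72, -0.92, -0.83 and -0.79, next to -0.84 for Tmod4, and they were chosen for that likeness. Itga9 had 8.82, 8.85 and 8.80 in transgenic and 9.70, 9.54 and 9.72 in wild-type hearts. None of the 5 was on the partner or marker lists.

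**Figure D4:**
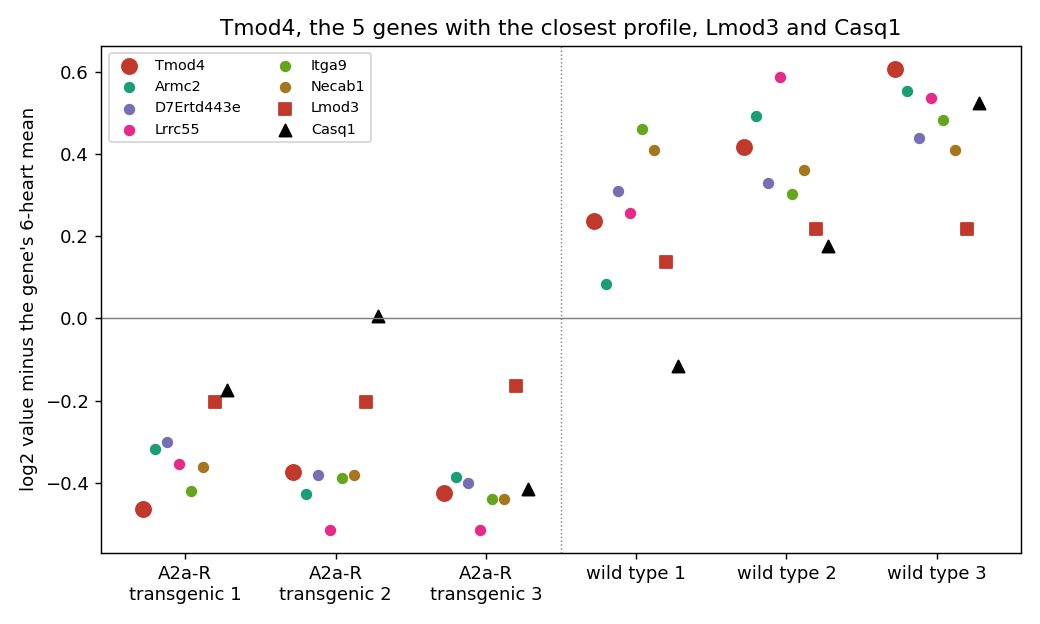
Log2 value minus the gene's own mean over the 6 hearts (y axis) in each A2a-R transgenic (left) and wild-type heart (right) for Tmod4, its 5 closest genes, Lmod3 and Casq1, with 1 symbol per gene. Tmod4 and its 5 closest genes are all below 0 in transgenic and above 0 in wild-type hearts, Lmod3 shows the same sides with smaller distances, and Casq1 overlaps between the groups.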

How the data were processed

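Gene expression was measured in 6 mouse hearts on 1 array each. The values deposited by the authors are on the log2 scale, made with RMA (background correction, quantile normalization and probe summary) and Partek, per the submitters' processing notes. The sources used here give no versions, settings or genome build. The table holds 28853 rows with values between 2.51 and 14.69, and array means lay between 7.03 and 7.06. RMA gives arrays similar distributions and compresses changes of dim and very bright transcripts. The distributions were not equal here. The SD over rows was 2.05 to 2.07 in transgenic and 2.08 to 2.10 in wild-type arrays. The upper quartile was 8.39 in the transgenic arrays and 8.42 to 8.44 in the wild-type arrays. Further quantile normalization of the tested rows, which evens out the distributions, moved small differences of the members. Tmod1 went from 0.14 to 0.12, Tmod2 from -0.07 to -0.03, Tmod3 from -0.09 to -0.06 and Lmod3 from -0.38 to -0.35. Lmod2 went from -0.18 to -0.19. Which of the 2 scalings is nearer to the RNA levels was not tested. Platform annotation of 2016 gave exactly 1 symbol for 21789 rows, several for 1621 and none for 5443, and only the first were tested.

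Transgenic minus wild type was fitted with limma 3.58.1 (R 4.3.3; lmFit and eBayes, no covariate), with Benjamini-Hochberg adjustment over the 21789 rows and a threshold of 0.05. Errors are SD over hearts or moderated SE, and precision is limited by having 3 arrays a group (median SE 0.0731 over all rows). Equal replicate numbers in the titles are not tied to litters or days, so no pairing was used. The family, the 7 partner lists and the 9 marker lists were chosen with earlier results of these data known. Named were all members, the called partners and otherwise the 3 with the smallest p of each list, and the 5 closest profiles to Tmod4. Actc1, Klhl40, Klhl41, Neb, Nebl, Srf, Casq1, the marker genes and the neighbouring genes fall outside this rule and were picked with their values known. The code was tested on simulated data. Alternatives were the replicate block, further quantile normalization, median centring, a filter on dim rows (lowest 40%), a robust trended prior, array weights, all rows, the mean of a gene's rows, a threshold of 0.10 and leaving out each array.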

Additional observations from a re-analysis of the deposited data

How the results depend on the processing

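Tmod4 was called under all 14 alternatives, with log2 differences of -0.93 to -0.75 and limma adjusted p of 0.000444 to 0.0414. Lmod3 kept its sign throughout and was called under 7 of 8 settings with all arrays and 1 of 6 with an array left out. With further quantile normalization Lmod3 was at -0.35, Tmod3 at -0.06 and Tmod2 at -0.03, while Tmod4 was at -0.80 and Lmod2 at -0.19. Of the 7 family members 2 were called, 1 with the replicate block and 1 to 2 with an array left out. The sign of Tmod2 reversed without transgenic replicate 2, to 0.0233, within a range of -0.12 to 0.0233 with an array left out. Of the 86 partner genes 4 were called, 7 without the dimmest 40% of rows, 8 with the trended and robust prior, and 1 to 3 with an array left out. Over all rows the 209 calls (113 higher, 96 lower) became 493 without the dimmest 40% of rows (184 higher, 309 lower), 579 with the trended and robust prior (240 higher, 339 lower), 476 at an adjusted p below 0.10 (230 higher, 246 lower) and 84 to 147 with an array left out. With the replicate number as a block there were 97 calls, and Lmod3 and Synpo2l had limma adjusted p of 0.0769 and 0.0657. Same-numbered hearts deviated together in 1 of 3 pairs (r = 0.16, -0.01 and -0.10 across rows, which are not independent), so the numbers were not taken as pairs. In the leave-one-out fits fewer samples were used, and for the other changes the cause was not tested. The within-heart differences of Lmod2 and Lmod3 from Tmod1 stayed negative in all alternatives run (-0.38 to -0.25 and -0.57 to -0.47 with an array left out). With an array left out this sign was fixed in advance, since the groups did not overlap in any of these genes, so it adds no support. Lmod1 is missing from the fit without the dimmest rows. Cross-hybridization between family members could not be examined from summarised rows.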
